A study of Homo sapiens with 4 samples.

Results

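The transcripts described here are 34 genes of the complement system and its regulators, taken by name from the 62655 gene IDs of the count table; each name matched 1 ID. They were measured in Hep G2, an established human hepatocellular carcinoma line used as a model of hepatocytes, and 28 of the 34 had enough reads to be tested. All cells had been loaded with lipid in medium rich in oleic acid and were then transfected, either with an oligonucleotide that mimics LysTTT-5'tRF, a fragment of the lysine tRNA with anticodon TTT, or with a negative control oligonucleotide. There were 2 libraries with the mimic and 2 with the control, prepared from poly(A) RNA, and all came from this cell line. The labels do not say whether the 2 libraries of a group came from separate cultures, so p-values here reflect variation among these 4 libraries, part of which may be technical.

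Complement is a cascade of plasma proteins, most of them made by hepatocytes, that marks particles for uptake and opens pores in membranes. The classical pathway starts with C1, the lectin pathway with mannose-binding lectin, and the alternative pathway with C3 itself; all converge on C3 and C5 convertases and end in the membrane attack complex. Soluble and membrane-bound regulators hold the cascade in check on host cells.

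Reads assigned to genes numbered from 15430539 to 18961222 per library, and the 34 genes took up 0.50% and 0.51% of them in the mimic libraries and 0.50% and 0.48% in the control libraries. On the leading principal component of all genes tested, with 40.7% of the variance, the mimic libraries stood at -23.0 and -4.62 and the control libraries at 1.53 and 26.0, so mimic library 2 lay nearer to control library 1 than to mimic library 1. The hepatocyte markers ALB, APOA1, APOB, TTR, TF, AFP and HNF4A were all tested and summed to 42930 and 42430 CPM (counts per 1000000 reads, after TMM scaling) with the mimic, against 41640 and 40020 CPM in the control. Of 6 macrophage markers none had enough reads to be tested, and PTPRC, CD163 and MARCO had 0 reads in every library.

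No complement gene passed the test of mimic against control. Of the 28 genes tested 0 had an adjusted p under 0.05 in the quasi-likelihood test of edgeR, adjusted by the Benjamini-Hochberg method over all 14464 genes tested, of which 0.346% were called. Adjusted p-values given below are of that kind unless another tool is named. At an unadjusted p under 0.05 there were 3, namely C1RL, lower with the mimic, and CD55 and C3, higher with the mimic, or 10.7% of the 28 beside 9.43% of all genes tested. DESeq2, which called 1.21% of the 3133 genes it adjusted, called 0 of the 28 but gave 21 of them no adjusted p, and limma voom, which called 0.346%, called 0. The median log2 fold change of mimic over control was 0.03 over the 28 genes and 0.00 over all genes tested. Of the 28, 17 lay above 0 and 11 below, beside 7284 above 0 among all 14464 genes tested. Without mimic library 2, 13 of the 28 lay above 0 and 15 below. The groups did not overlap in 10 of the 28, 5 higher and 5 lower with the mimic, while among all genes tested 39.1% did not overlap, 19.8% higher and 19.3% lower. For 11 of the 28 the 95% interval of the fold change lay within 1.2-fold in either direction, and for 22 within 1.5-fold. In a whole-culture measurement of this kind, fewer cells that express a gene and less of its RNA per cell cannot be told apart.

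**Figure D1:**
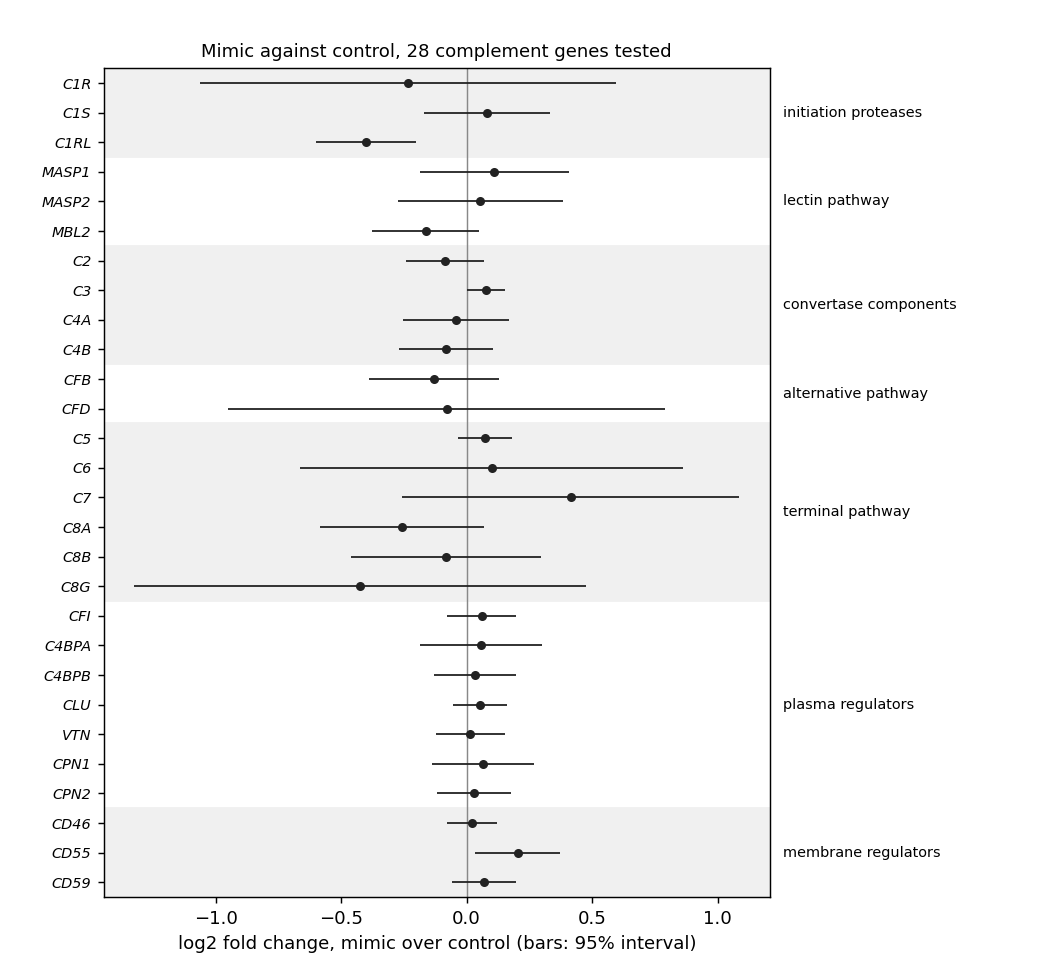
The log2 fold change of mimic over control (x axis) is plotted for the 28 complement genes tested, grouped by role, with bars for the 95% interval. C1RL lies farthest from 0 relative to its interval, at -0.40, and the widest intervals belong to genes with few reads such as C8G, CFD and C1R.

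C4A and C4B show how far the counts can resolve the family. They encode the acidic and basic forms of C4 and lie side by side on chromosome 6 of GRCh38.p14, C4A from 31982057 to 32002681 and C4B from 32014795 to 32035418. Their coding sequences in the GENCODE 29 transcripts have 5232 bases each and are 99.75% identical, with 13 differences. The following stretch holds 5 of these and is shown because it is the most divergent 60 bases of the pair, from coding base 3338 to 3397; capitals mark the differing bases.
C4A: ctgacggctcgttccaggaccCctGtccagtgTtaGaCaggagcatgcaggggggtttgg
C4B: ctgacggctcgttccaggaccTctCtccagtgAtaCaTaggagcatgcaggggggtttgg
Of the windows of 75 bases in the C4A transcript 90.5% occurred in another gene, and of those in C4B 91.01%. The read length is not given in the sources used here, so 75 bases is a chosen length. By default HTSeq counts a read that aligns equally well to both genes to neither; if that setting was used, the counts of C4A and C4B come from the remainder that tells them apart.

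C1RL and CD55 had the smallest p-values of the 28 complement genes tested, and their promoters are shown from 250 bases before to 50 after the start site, from RefSeq on GRCh38.p14. Capitals mark matches on either strand. The letters searched were TTCNNNGAA, a form bound by STAT factors; CCAAT, known as the CAAT box; GGGCGG, known as the GC box; and TATAAA, known as the TATA box. The NF-kB motif was searched as well. In these windows no match overlapped another motif.
C1RL, chr12:7109165-7109464, minus strand: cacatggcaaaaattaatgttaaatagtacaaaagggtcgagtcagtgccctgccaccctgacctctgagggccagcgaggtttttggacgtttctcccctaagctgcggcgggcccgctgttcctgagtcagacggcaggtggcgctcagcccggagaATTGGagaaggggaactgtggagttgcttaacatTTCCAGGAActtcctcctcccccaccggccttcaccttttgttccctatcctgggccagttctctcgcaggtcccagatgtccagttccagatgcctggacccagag
CD55, chr1:207321428-207321727, plus strand: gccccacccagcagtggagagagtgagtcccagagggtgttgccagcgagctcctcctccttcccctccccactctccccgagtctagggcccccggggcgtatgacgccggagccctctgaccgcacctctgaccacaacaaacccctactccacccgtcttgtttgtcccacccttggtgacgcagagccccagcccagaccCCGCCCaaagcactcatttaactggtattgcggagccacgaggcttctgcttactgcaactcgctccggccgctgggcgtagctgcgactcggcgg
In the C1RL window TTCNNNGAA began at position -57 from the start site and CCAAT, on the opposite strand, at -91. In the CD55 window GGGCGG, on the opposite strand, began at -46. Among the 36 promoter windows listed for 24 of the 34 genes, 30.6% held TTCNNNGAA beside 7.7% of all 35116 windows, and 19.4% held GGGCGG beside 45.0%. CCAAT was in 47.2% beside 34.6%, TATAAA in 5.6% beside 11.5% and the NF-kB motif in 2.8%, that of CFB, beside 11.3%. Some of the windows overlap, since a gene can have several start sites, and a match of letters is not a binding site.

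C1RL had the smallest p-value of the 28 complement genes. C1RL encodes a serine protease related to C1r that is made in liver. It had 382 and 491 reads with the mimic, against 587 and 526 in the control, or 24.95 and 26.14 CPM against 34.90 and 32.66 CPM. Both mimic libraries thus lay below both control libraries, by more than the spread within either group. The mean was 25.5 ± 0.841 CPM with the mimic, against 33.8 ± 1.58 CPM in control libraries (SD, n = 2 each). The log2 fold change was -0.40 (SE 0.10, 95% interval -0.60 to -0.20), and it did not pass (unadjusted p = 0.000347, adjusted p = 0.0718 in edgeR). Over 13 alternative settings the log2 fold change lay between -0.45 and -0.35. The adjusted p ranged from 0.00399 to 0.754, and 1 setting, a block by column number in which edgeR called 2.12% of all genes, called it. The largest value came from edgeR with no filter on low counts, a setting that called 0 of all 30342 genes. DESeq2 gave C1RL no adjusted p (unadjusted p = 0.00604).

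**Figure D2:**
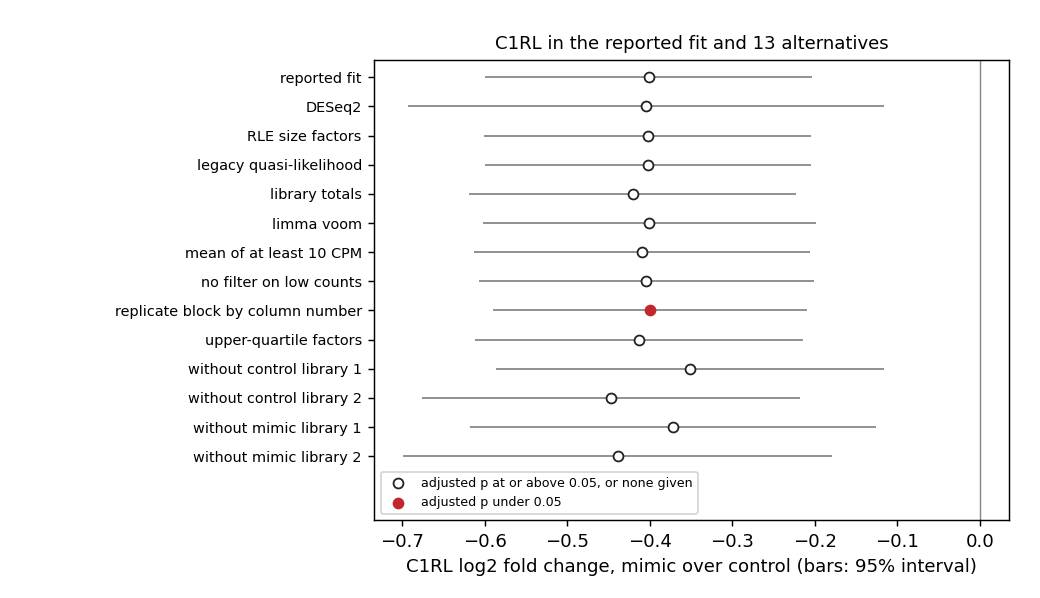
The C1RL log2 fold change (x axis, bars for the 95% interval) is plotted for the reported fit and 13 alternatives. All 14 estimates lie between -0.45 and -0.35, and the filled point, the block by column number, is the setting in which the adjusted p was under 0.05.

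C1RL lies on chromosome 12 from 7094554 to 7109214, near C1R and C1S, which encode the proteases of the C1 complex. C1R had 15 and 44 reads with the mimic and 42 and 25 in the control, and the groups overlapped (log2 fold change -0.23, 95% interval -1.06 to 0.59). C1S had 18.7 and 18.4 CPM with the mimic, against 16.4 and 18.6 CPM in the control, again overlapping, with a log2 fold change of 0.08 (95% interval -0.17 to 0.33). A difference between C1RL and these neighbours was not tested, and the C1R interval includes the C1RL value. EMG1, which shares 3.54% of the C1S exon sequence on the same strand, had 98 and 118 reads with the mimic and 130 and 131 in the control (log2 fold change -0.32, edgeR adjusted p = 0.626). In GENCODE 29, 13.4% of the C1RL exon sequence is shared with C1R on the same strand and 4.09% lies opposite the antisense gene C1RL-AS1. C1RL-AS1 had 95 and 100 reads with the mimic and 90 and 82 in the control. HTSeq by default counts reads in shared exons to neither gene, and whether strand was used in counting is not known, so the part these overlaps play in the C1RL difference was not tested.

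**Figure D3:**
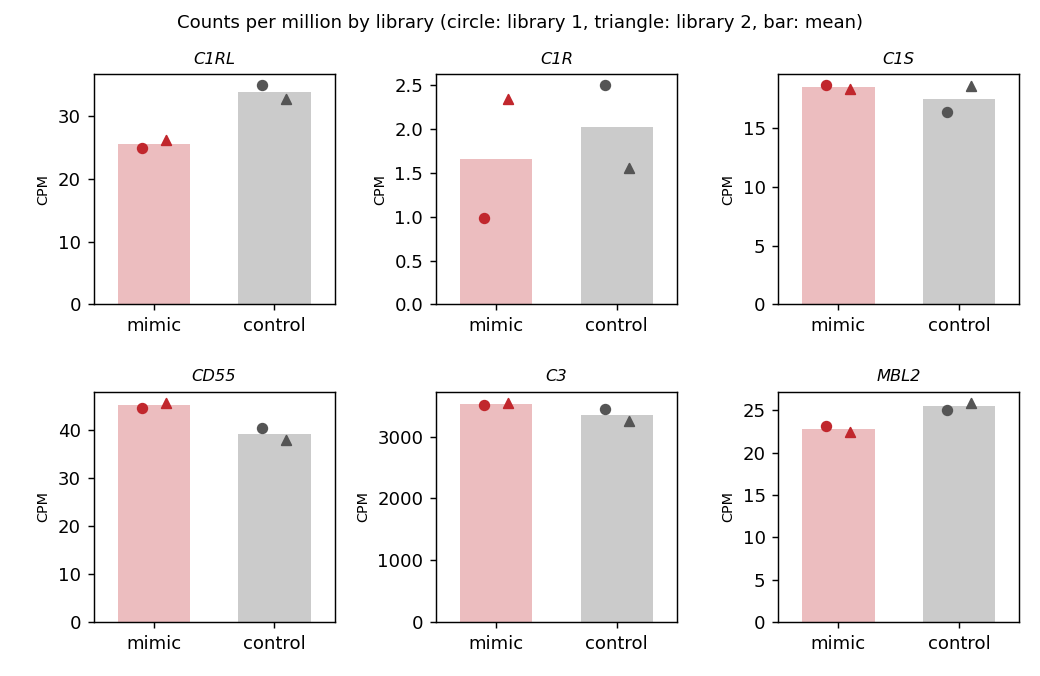
CPM (y axes, from 0) of C1RL, its neighbours C1R and C1S, and CD55, C3 and MBL2 in each library, with mimic libraries on the left and control libraries on the right of each panel; points are libraries and bars are group means. The groups are apart for C1RL, CD55, C3 and MBL2 and overlap for C1R and C1S.

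The lectin pathway was represented by a recognition protein and by the protease genes MASP1 and MASP2. MBL2, mannose-binding lectin, had 23.1 and 22.4 CPM with the mimic, against 25.03 and 25.89 CPM in the control. The groups did not overlap, but the log2 fold change was only -0.16 (95% interval -0.38 to 0.05, edgeR adjusted p = 0.664). MASP1 and MASP2, which encode proteases of this pathway, had log2 fold changes of 0.11 and 0.05, with overlapping groups.

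Of the convertase components C3 dominated. C3, from which every pathway draws its opsonin, lies on chromosome 19 from 6677704 to 6720650. It had 53809 and 66669 reads with the mimic and 58104 and 52296 in the control. That was 69.8% and 69.6% of all complement reads in the mimic libraries and 69.5% and 68.3% in the control libraries. It stood at 3514 and 3549 CPM with the mimic, against 3455 and 3247 CPM in the control, without overlap between groups. The 95% interval of the C3 log2 fold change of 0.08 ran from 0.00 to 0.15, so a difference beyond 1.11-fold lay outside it (edgeR, unadjusted p = 0.0496, adjusted p = 0.530). With library totals in place of TMM the C3 log2 fold change was 0.06 (edgeR, unadjusted p = 0.122). With upper-quartile factors it was also 0.06 (edgeR, unadjusted p = 0.109). The unadjusted p of C3 was 0.0502 in DESeq2, 0.0161 in limma voom and 0.00795 in edgeR with the block by column number. The C3 value also rested in part on control library 2, the lowest of the 4. Without that library the log2 fold change was 0.03, and without control library 1 it was 0.12, with adjusted p-values of 0.943 and 0.0718 in edgeR.

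C4A had 28.6 and 31.6 CPM with the mimic, against 28.3 and 33.9 CPM in the control, and C4B had 31.7 and 33.3 CPM with the mimic, against 33.4 and 35.5 CPM in the control. C4A overlapped between groups and C4B did not, though by a narrow margin, with log2 fold changes of -0.04 and -0.08. The sign of the C4A value turned without mimic library 1 (0.02) and without control library 2 (0.09). C4A made up 47.5% and 48.7% of the reads counted to either gene in the mimic libraries and 45.9% and 48.8% in the control libraries. Summed into 1 gene, C4A and C4B had a log2 fold change of -0.06 (95% interval -0.22 to 0.09, edgeR adjusted p = 0.866). C2, the protease that joins C4b in the classical convertase, had 59.0 and 56.4 CPM with the mimic, against 63.9 and 58.3 CPM in the control, with overlapping groups.

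In the alternative pathway CFB, the protease of that convertase, had 16.5 and 15.6 CPM with the mimic, against 18.6 and 16.4 CPM in the control, with overlapping groups and a log2 fold change of -0.13 (95% interval -0.39 to 0.13). Without control library 1 the CFB value was -0.03, and without control library 2 it was -0.21. CFD, the protease that activates factor B, had 15 and 35 reads with the mimic and 20 and 31 in the control. CFP, properdin, which stabilises the convertase and is mainly a product of leukocytes, had 3 reads in all 4 libraries together and was not tested.

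C2 and CFB are also covered by another annotated gene, ENSG00000244255, which shares 32.9% of the C2 exon sequence and 45.0% of that of CFB on the same strand. That gene had 0 reads in every library. CFI likewise shares 32.0% of its exon sequence with ENSG00000285330, also at 0 reads in every library. The levels of C2, CFB and CFI given here may therefore leave out reads from the shared exons. This depends on whether the annotation used for counting held the overlapping genes as GENCODE 29 does, and on the HTSeq setting. The part of these overlaps in the group values was not tested.

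**Figure D4:**
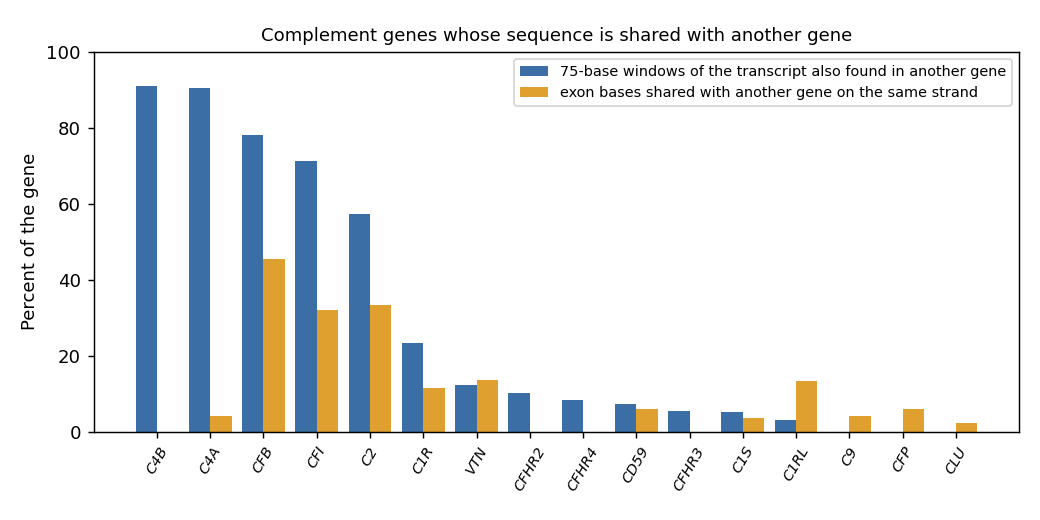
For each complement gene with at least 2% of either measure, the share of 75-base windows of its longest coding transcript that occur in another gene (blue) and the share of its exon bases that lie in another gene on the same strand (yellow) are plotted in percent. C4B, C4A, CFB, CFI and C2 have the largest shared parts, with window shares from 91.01% for C4B to 57.4% for C2.

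Of the terminal pathway C5 was abundant and the pore components were not. C5, which is cleaved to start the membrane attack complex, had 239 and 260 CPM with the mimic, against 239 and 235 CPM in the control. The groups overlapped and the log2 fold change was 0.07 (95% interval -0.03 to 0.18); it was 0.01 without mimic library 2 and 0.13 without mimic library 1. The subunits of C8, which inserts into the membrane, were low: C8A had 136 and 172 reads with the mimic and 176 and 179 in the control, C8B had from 117 to 146 reads per library and C8G from 17 to 29. C8A was lower in both mimic libraries than in either control library on the CPM scale, at 8.88 and 9.16 against 10.5 and 11.1 CPM, with a log2 fold change of -0.26 (95% interval -0.58 to 0.07). C6 and C7, which join C5b, had from 25 to 55 reads per library. The largest log2 fold changes by size among the 28 were those of C8G at -0.42 (95% interval -1.32 to 0.48) and C7 at 0.41 (-0.26 to 1.09), and at these depths neither could be told from 0. C9, the protein that polymerises into the pore, had 1 read in mimic library 2 and 0 in the others and was not tested. A count of 0 allows a level of up to 3 reads, which was 0.196 and 0.160 CPM in mimic libraries 1 and 2 and 0.178 and 0.186 CPM in control libraries 1 and 2.

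The 7 plasma regulators all lay slightly above 0, though 1 lay below with library totals in place of TMM and 3 lay below without mimic library 1, and none passed. Their log2 fold changes ran from 0.01 for VTN, vitronectin, to 0.07 for CPN1, the catalytic subunit of carboxypeptidase N, which inactivates the anaphylatoxins. CLU, clusterin, which like vitronectin keeps the terminal complex from inserting, had 246 and 247 CPM with the mimic, against 248 and 227 CPM in the control, with overlapping groups, and its log2 fold change of 0.05 became -0.01 without control library 2. CFI, the protease that cleaves C3b and C4b, had 76.5 and 75.3 CPM with the mimic, against 71.8 and 73.8 CPM in the control, with a log2 fold change of 0.06 (95% interval -0.08 to 0.20). C4BPA and C4BPB, the chains of C4b-binding protein, a cofactor of factor I, were at 0.06 and 0.03, and CPN2, the other subunit of carboxypeptidase N, was at 0.03.

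The factor H-related genes were at or near the limit of detection. CFHR3, CFHR4 and CFHR5 had 0 reads in every library and CFHR2 had 2 reads, both in control library 1. These genes resemble each other in parts, with window shares from 0.55% for CFHR5 to 10.2% for CFHR2. Summing the 4 genes left them at 2 reads in all, too few to test.

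Of the membrane regulators, which protect the cell that carries them, CD55 stood somewhat apart. CD55, decay-accelerating factor, which breaks up C3 convertases, lies on chromosome 1 from 207321678 to 207360966. It had 44.6 and 45.7 CPM with the mimic, against 40.5 and 37.9 CPM in the control. Both mimic libraries lay above both control libraries. The mean was 45.1 ± 0.755 CPM with the mimic, against 39.2 ± 1.80 CPM in control libraries (SD, n = 2 each). The log2 fold change of CD55 was 0.20 (95% interval 0.03 to 0.37) and did not pass (edgeR, unadjusted p = 0.0214, adjusted p = 0.420). It was 0.16 without control library 2 and 0.25 without control library 1. DESeq2 gave CD55 a log2 fold change of 0.20, with an unadjusted p of 0.1055 and no adjusted p. CD46, a cofactor for the cleavage of C3b, had 310 and 322 CPM with the mimic, against 307 and 317 CPM in the control, a log2 fold change of 0.02 (95% interval -0.08 to 0.12) whose sign turned without mimic library 2 and without control library 1. CD59, which blocks the addition of C9, had 103 and 97.8 CPM with the mimic, against 95.2 and 95.4 CPM in the control, without overlap, at a log2 fold change of 0.07 (95% interval -0.06 to 0.20).

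Levels were compared between genes as CPM per kilobase of exon, using the union of exons in GENCODE 29. C3 led with 413 CPM per kilobase over the 4 libraries, followed by C5 at 37.2, CLU at 36.6 and CD46 at 36.1. This order is of reads as counted. C4A at 4.26 and C4B at 4.67, and to a lesser degree C2, CFB and CFI, may have lost reads to shared sequence, as described above, so their place is not known. The same may hold for VTN and C1R. VTN shares 13.6% of its exon sequence on the same strand with ENSG00000273171, which had 0 reads in every library. C1R shares 11.4% of its exon sequence with C1RL. The values of C5, CLU and CD46 overlapped between libraries and their order is not resolved. VTN at 30.8, CPN2 at 20.9, C4BPB at 19.8, CFI at 15.3, CPN1 at 14.3 and C2 at 10.7 completed the 10 genes above 10 CPM per kilobase. With the length of the longest transcript there were 12 such genes and CLU, at 78.7 CPM per kilobase, was above C5 at 44.5. C1S and C1R, whose proteins act together in C1, stood at 2.79 and 0.31 CPM per kilobase.

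**Figure D5:**
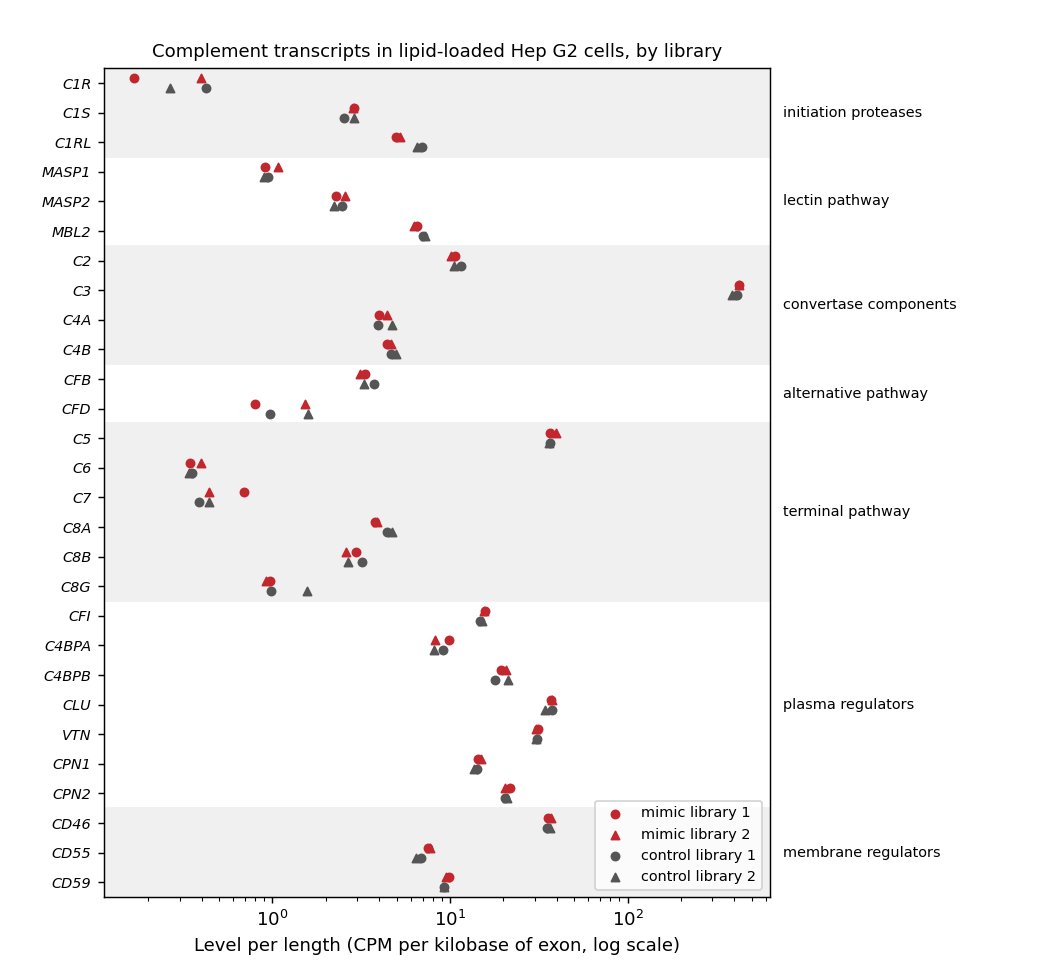
The level per length of each of the 28 complement genes tested (x axis, CPM per kilobase of exon, log scale) is plotted for each library, grouped by role. C3 lies far above the next genes in every library, and most mimic and control points of a gene lie close together.

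Complement genes outside the 34 mostly had few reads or none. Of a list of 24 initiators, receptors and other regulators 4 had enough reads to be tested. In edgeR 0 were called and 0 had an unadjusted p under 0.05, and limma voom called 0 as well. DESeq2 also called 0, but it adjusted only 3133 genes. It gives no adjusted p to genes under a cutoff on mean reads. CD55 fell under it and had more reads than SERPING1, ITGB2 and COLEC11, so the 0 of DESeq2 does not cover those. The 4 were C1QBP, a mitochondrial protein that can bind C1q, at a log2 fold change of -0.02, SERPING1, the C1 inhibitor, at -0.18, the integrin chain ITGB2 at -0.14 and the collectin COLEC11 at 0.79 with only 16 and 45 reads with the mimic and 14 and 20 in the control. C1QA, C1QB and C1QC, which encode the recognition part of C1 and are made by macrophages, had 0 reads in every library.

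Complement genes of the liver respond to inflammatory cytokines, so acute phase genes and the factors that act on them were read beside them. Of 30 listed genes 24 were tested and 1 was called, where 0.346% of all genes tested were called. At an unadjusted p under 0.05 there were 5, all higher with the mimic, or 20.8% of the 24 beside 9.43% of all genes tested. That was NFKBIA, the inhibitor that NF-kB induces, which rose with the mimic, at 136 and 128 CPM against 111 and 104 CPM in the control (log2 fold change 0.30, edgeR adjusted p = 0.0291). When either mimic library 1 or control library 2 was left out, NFKBIA did not pass. The next smallest p-values belonged to IL1R1, the receptor of interleukin-1, with 235 and 233 CPM against 202 and 208 CPM in the control, and to the transcription factor CEBPD, with 76.7 and 87.9 CPM against 73.2 and 73.4 CPM in the control. Neither passed (edgeR adjusted p = 0.119 and 0.439), and nor did the other two, the protease inhibitor SERPINA3 and the fibrinogen chain FGB, at log2 fold changes of 0.18 and 0.11 (edgeR adjusted p = 0.468 and 0.508). The median log2 fold change of the 24 was 0.03, and STAT3 stood at 0.07. CRP and SAA1, which rise most in the acute phase, had 0 reads in every library.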

How the data were processed

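Poly(A) RNA of 4 Hep G2 samples was sequenced, 2 per treatment. The deposited values are raw counts of reads per Ensembl gene, counted by the authors with no normalization; per the file headers rRNA reads had been removed and HTSeq was used. The submitters' processing notes name STAR, HTSeq, Bowtie2 and FastQC and the build GRCh38.p14. No tool version, annotation release or strand setting was found for them. Control columns carry the abbreviation of the negative control; the other 2 were taken as the mimic by elimination, and library numbers are those of the columns, whereas the titles number the controls 3 and 4. Symbols were matched for 62590 of 62655 gene IDs. Summary entries that name no gene, from 23.1% to 24.1% of each library's total, were left out.

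Counts were fitted in edgeR 4.0.16 (R 4.3.3) over the whole table with filterByExpr (minimum count 10, minimum total 15), TMM scaling and the quasi-likelihood F test (legacy = FALSE), with Benjamini-Hochberg adjustment over 14464 genes and a threshold of 0.05. The code was tested on simulated data. Alternatives used DESeq2 1.42.0, limma 3.58.1 voom, other scalings and filters, each library left out, and a block. Intervals cover 95% and come from the edgeR fit, which includes variation between libraries; floors of 3 reads cover counting error only. Exon lengths and overlaps come from GENCODE 29 and gene positions from RefSeq.

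The members and lists were chosen with earlier results of these data known. Members were described by role, with values per library for those at an unadjusted p under 0.05, the most abundant of a role, and C4A, C4B and the CFHR genes, and further members were added after their values were seen.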

Additional observations from a re-analysis of the deposited data

How the results depend on the processing

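Of 184 recomputed values 170 kept their direction and their side of the threshold or, for counts, stayed within 1.5 times. The DESeq2 values of C1RL, CD55, CFB, MBL2, C4A and C4B had no adjusted p and were taken as not called. They are thus among those kept without having a side of the threshold. The fit with no filter on low counts called 0 of 30342 genes, so its values could not turn into calls. The number of complement genes called was 0 in every setting other than the block by column number, where it was 1 (C1RL, adjusted p = 0.00399, edgeR's quasi-likelihood test). That block called 306 genes in all and 2 of the acute phase and regulator list. Column numbers 1 and 2 occur in both groups, but the labels number the samples 1 to 4 and nothing says that a number marks a shared culture or day; the differences between the 2 libraries of a group correlated between groups at 0.02 over all genes tested and at 0.12 over those at 10 CPM or more, the range of C1RL. With 1 such correlation from 2 numbers the pairing stays unproven, so the block is given as a value and not as a paired design, and the cause of its larger count was not tested.

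The number of complement genes at an unadjusted p under 0.05 was 3 in the reported fit, in limma voom and with the block by column number. It was 1 in DESeq2. With the other scalings and filters, and with the legacy form of the edgeR test, it was 2. Calls in the acute phase and regulator list fell to 0 with no filter on low counts, a setting that called 0 of all 30342 genes. With each library left out the log2 fold change of CLU ranged from -0.0067 (without control library 2) to 0.121 (without control library 1), that of CD46 from -0.0074 (without mimic library 2) to 0.0458 (without mimic library 1) and that of C4A from -0.166 (without control library 1) to 0.0945 (without control library 2), so their directions turned; the cause was not tested. C5 ranged from 0.0081 (without mimic library 2) to 0.130 (without mimic library 1) and CFB from -0.215 (without control library 2) to -0.0321 (without control library 1), with no call. Genes with few reads, such as C1R, C6, C7, C8G and CFD, have 95% intervals that reach beyond a change of 1.5-fold.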
